A study of Mus musculus with 4 samples.

Results

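Actin filaments, the myosin motors that pull on them and the proteins that bundle or anchor them give an intestinal cell its brush border, its junctional belt and, in the muscle layers of the gut wall, its contraction. The 10 genes described here encode actin isoforms (Acta1, Actc1, Actb and Actg1), tropomyosins (Tpm1, Tpm2 and Tpm4), a myosin regulatory light chain (Myl9) and 2 brush border proteins, villin (Vil1) and ezrin (Ezr). They were taken as every non-control spot on the arrays that carries one of these gene names. This gave 20 probes of the 39429 on the array and 10 genes of 30119. The genes were chosen with earlier results of these arrays known, so their signals and differences are a description.

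The study measured gene expression on 1-colour Agilent arrays in 4 RNA samples of wild type C57/BL6 mice. The groups were o-organoid and y-organoid, both named as crypt-villus organoids, which are epithelial structures grown in culture, then crypt, the epithelial pit of the gut wall that holds the stem cells, and whole intestine. The age and treatment of the mice, the culture conditions, the number of mice behind each sample and the meaning of the letters o and y are not given in the sources used here. Each group has 1 array, so no test, p-value or SD between samples can be given, and each difference describes a pair of arrays.

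The o-organoid array was labelled from 40 ng of RNA and the remaining arrays from 20 ng, and between 51.9% and 58.7% of non-control spots on an array were well above background. All 10 pan-epithelial markers were well above background on every array. Of 13 fibroblast and pericyte markers, 2 passed background on o-organoid, 2 on y-organoid, 4 on crypt and 13 on intestine. The crypt array carried villus enterocyte transcripts at about the signal of whole intestine. Lct, the lactase gene, had a log2 signal of -0.43 on the o-organoid and -1.66 on the y-organoid array, against 7.20 on the crypt and 6.77 on the intestine array. Krt20, a keratin of mature villus cells, had 1.75 on the o-organoid and 2.08 on the y-organoid array, against 7.16 on the crypt and 7.90 on the intestine array. Lgr5, the stem cell receptor, had a log2 signal of 2.32 on the o-organoid, 2.85 on the y-organoid, -0.39 on the crypt and -1.75 on the intestine array. Xist was well above background on the intestine array alone of the 4, and the Y-linked Ddx3y and Eif2s3y on the other 3 arrays but not on the intestine array, so the sex of the mice and the comparison of crypt with intestine cannot be told apart.

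As background, most tissues build their filaments from the cytoplasmic actins Actb and Actg1, while Acta1 is the skeletal muscle isoform, Actc1 the cardiac isoform, and Acta2 and Actg2 the smooth muscle isoforms. Tropomyosins are coiled-coil proteins that lie along the filament and set which myosins and binding proteins reach it, and their genes make many isoforms by alternative exons. Phosphorylation of Myl9 by myosin light chain kinase switches on myosin II in smooth muscle and in other cells. Villin bundles and severs the filaments of microvilli, and ezrin links them to the apical membrane.

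The probes below are shown because the Acta1 and Tpm2 results rest on them and because probes of Actg1 and of Tpm1 did not give the same answer. Each is a 60-base probe, printed 5′ to 3′ with its position in build mm9 on the minus strand, and capitals mark the bases that differ between overlapping Actg1 probes.
Acta1 A_51_P246854, chr8:126416197-126416256: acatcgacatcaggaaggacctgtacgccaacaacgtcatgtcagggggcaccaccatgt
Actg1 A_55_P2008907, chr11:120208409-120208468: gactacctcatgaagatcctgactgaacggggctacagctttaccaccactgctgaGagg
Actg1 A_52_P72237, chr11:120208371-120208430: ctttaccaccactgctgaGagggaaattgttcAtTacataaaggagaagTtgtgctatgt
Actg1 A_55_P1985984, chr11:120208361-120208420: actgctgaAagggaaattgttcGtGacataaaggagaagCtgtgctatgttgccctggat
Tpm1 A_55_P2032192, chr9:66871166-66871225: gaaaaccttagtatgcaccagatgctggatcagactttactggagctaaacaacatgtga
Tpm1 A_55_P2078680, chr9:66880274-66880333: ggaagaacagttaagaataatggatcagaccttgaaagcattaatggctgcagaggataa
Tpm2 A_55_P2121408, chr4:43532262-43532321: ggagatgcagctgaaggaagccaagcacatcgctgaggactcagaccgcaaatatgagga
Tpm2 A_52_P315976, chr4:43531276-43531335: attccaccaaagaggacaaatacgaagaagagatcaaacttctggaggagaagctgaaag

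The array's single probes for the other genes lie at chr5:143665422-143665481 (Actb, minus strand), chr2:113873064-113873123 (Actc1, minus strand), chr2:156607301-156607360 (Myl9, plus strand), chr8:74676891-74676950 (Tpm4, plus strand), chr1:74481982-74482041 (Vil1, plus strand) and chr17:6942607-6942666 (Ezr, minus strand), all in mm9. Exon and UTR annotation of that build was not used here. Actin genes are close copies of each other, so sequence shared with probes of other genes was searched over at least 40 bases at 90% identity or more. It was found for 1 of the 20 probes, Actg1 A_55_P1970597, which shares 58 bases with 3 mismatches with a probe of an unnamed transcript. The Acta1 and Myl9 probes shared none with a probe of another gene by that search, which covers the probes on the array and not the genome.

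Signals below are intensities as the scanner software processed them, or log2 signals, which are log2 intensities minus the 75th percentile of the array. The error after ± is the scanner software's own error of a spot, about 10% of a bright intensity, and it does not cover differences between mice or cultures. For a difference between arrays it came to between 0.20 and 0.24 on the log2 scale. Since intensities also scale with the array, differences are given from the log2 signals. A gene was called at a difference of 2-fold or more. A spot not well above background is called dim and gives only a bound, the lowest signal that was well above background on that array or the spot's own, whichever is higher.

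Between o-organoid and crypt, 9 of the 10 genes could be compared. Acta1, Myl9 and Tpm4 were past 2-fold higher on the o-organoid array and Tpm2, Vil1 and Ezr past 2-fold lower, where 8.51% of all 17202 genes compared were higher and 13.6% lower. Between y-organoid and crypt, Acta1, Myl9 and Tpm4 were higher and Tpm2 and Vil1 lower among 9 compared, with a background of 18.4% higher and 13.3% lower of 17197 genes. These 2 comparisons share the crypt array. Between crypt and intestine, 0 of 10 were higher and 3 were lower on the crypt array (Acta1, Myl9 and Tpm2), with 6.83% and 14.2% of 18199 genes. Between o-organoid and y-organoid, Tpm1 was higher and Myl9 and Ezr lower among 8 compared, with 8.08% and 19.3% of 17295 genes. Past 4-fold in either direction were 3 of the 9 genes for o-organoid minus crypt (6.16% of all genes), 4 of 9 for y-organoid minus crypt (9.08%), 2 of 10 for crypt minus intestine (7.7%) and 1 of 8 for o-organoid minus y-organoid (3.92%). The genes were chosen on these contrasts, so nothing is read from the counts. The split of all genes depends on the scaling. With the scaling of the deposited value table, 10.9% of genes were higher and 11.5% lower for o-organoid minus crypt, 9.15% and 25.9% for y-organoid minus crypt, 37.5% and 8.49% for crypt minus intestine, and 25.2% and 6.38% for o-organoid minus y-organoid. With quantile normalization, 12.5% were higher and 10.68% lower for crypt minus intestine, and 10.5% and 11.9% for o-organoid minus y-organoid. The members' median difference was -0.29 for o-organoid minus crypt, -0.03 for y-organoid minus crypt, -0.31 for crypt minus intestine and -0.22 for o-organoid minus y-organoid. The medians over all genes compared were 0.00, 0.15, 0.06 and -0.15 in the same order.

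**Figure D1:**
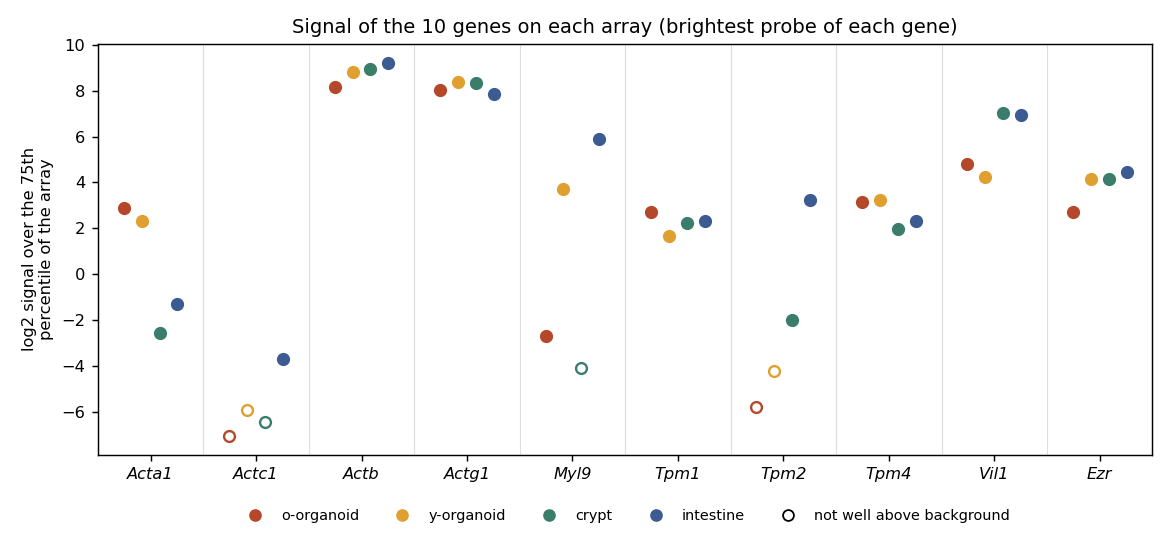
Log2 signal over the 75th percentile of the array (vertical axis) of the brightest probe of each gene, with 1 point per array and open points for spots not well above background. Acta1 is highest on the 2 organoid arrays, Myl9 on the intestine and y-organoid arrays, and Actb lies between 8.17 and 9.22 on all 4 arrays.

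**Figure D2:**
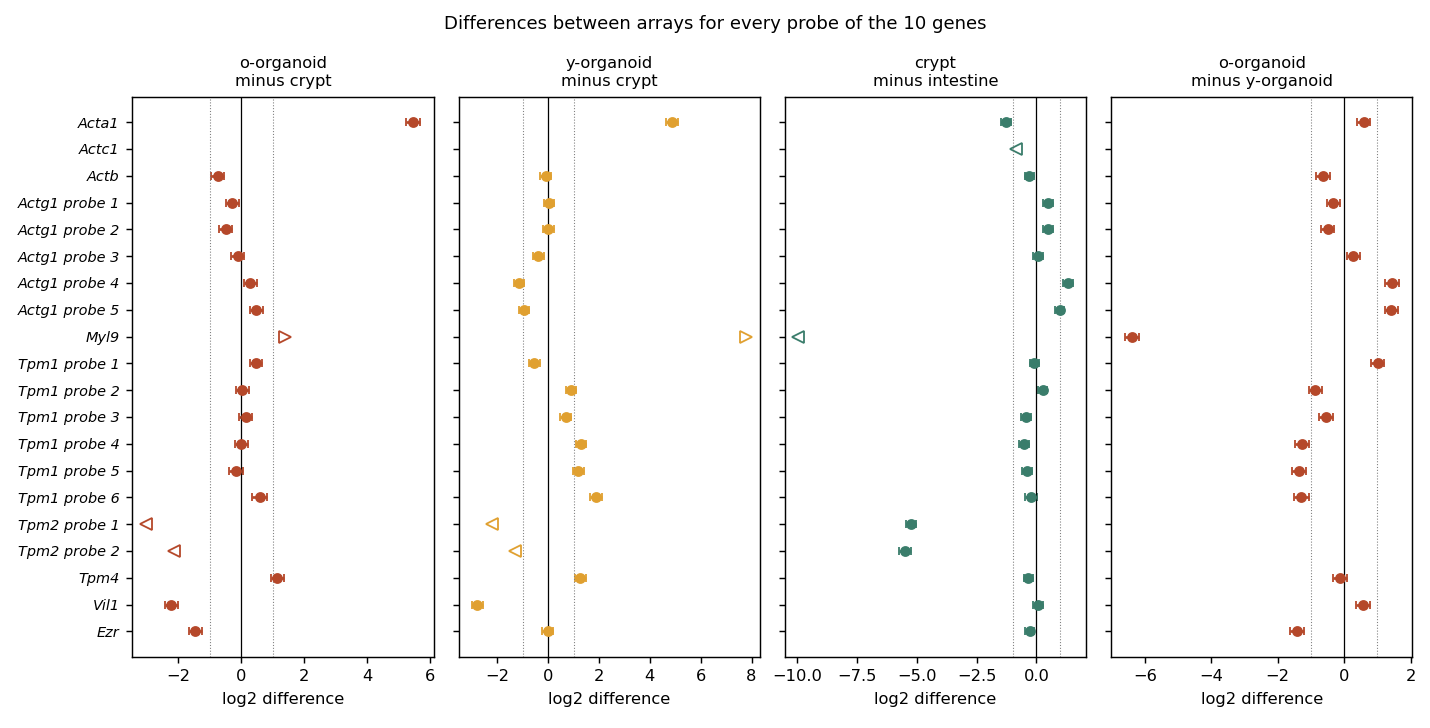
Log2 differences (horizontal axis) for every probe of the 10 genes in the 4 comparisons, with the scanner software's error as bars, open triangles for bounds and dotted lines at 2-fold. The Myl9 bounds reach 7.80 for y-organoid minus crypt and -9.96 for crypt minus intestine, and the Tpm1 probes fall on both sides of 0 for y-organoid minus crypt.

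Acta1, the skeletal muscle actin, was high on both organoid arrays and low on both tissue arrays. Its intensity was 4798 ± 480 on the o-organoid and 1400.1 ± 140 on the y-organoid array, against 80.0 ± 9.46 on the crypt array and 159 ± 16.5 on the intestine array. All 4 spots were well above background, and the lower organoid value lay well above the higher tissue value. The difference was 5.46 ± 0.22 on the log2 scale, or 43.9-fold, for o-organoid minus crypt and 4.87 ± 0.22, or 29.2-fold, for y-organoid minus crypt. Crypt minus intestine was -1.28 ± 0.23, which was -0.54 with the scaling of the deposited value table, and o-organoid minus y-organoid was 0.59 ± 0.20. In RNA of whole samples, fewer cells of a type and less RNA per cell cannot be told apart.

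Actc1, the cardiac actin, did not share this pattern. Its intensity was 4.90 on the o-organoid, 4.68 on the y-organoid and 5.50 on the crypt array, all not well above background, against 30.2 ± 5.16 on the intestine array. Crypt minus intestine was therefore a bound, with the crypt signal at least 1.80-fold lower, and no other comparison could be made.

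The other striated muscle genes were mostly dim on each of the 4 arrays. Of 29 with a probe, 8 were well above background on the o-organoid and 8 on the y-organoid array. On the crypt array 4 passed, and on the intestine array 12. Those on the o-organoid array were Myh7, Tnnt1, Tnnt2, Tnni1, Tnni2, Tnnc2, Neb and Myl3. Those on the y-organoid array were Myh7, Tnnt1, Tnnt2, Tnni2, Tnni3, Tnnc2, Mb and Myl3. The list's intensities, each divided by the array's 75th percentile and summed, came to 1.34 on the o-organoid and 3.64 on the y-organoid array, against 2.71 on the crypt and 4.69 on the intestine array. For o-organoid minus crypt, 1 of 8 compared was past 2-fold higher and 3 lower, with a median of -0.02, against 8.51% and 13.6% of all genes. For y-organoid minus crypt, 4 of 9 were higher (Myh7, Tnni2, Tnnt2 and Mb) and 2 lower (Tnnt1 and Tnni1), with a median of 0.75. There, 18.4% of all genes were higher and 13.3% lower.

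Genes of this list differed in their own patterns. Myh7, the slow myosin heavy chain, had a log2 signal of -4.28 on the o-organoid, 0.36 on the y-organoid, -4.24 on the crypt and -3.76 on the intestine array, so that y-organoid minus crypt was 4.60, or 24.3-fold. Tnni2, the fast troponin I, had -2.92 on the o-organoid, -1.52 on the y-organoid and -0.13 on the intestine array, its highest, and was dim on the crypt array. It was at least 3.03-fold higher on the o-organoid and at least 8.01-fold higher on the y-organoid array than on the crypt array. Tnnt1, the slow troponin T, ran the other way, with -1.52 for o-organoid minus crypt and -1.50 for y-organoid minus crypt. The part of striated muscle transcripts in the Acta1 signal was not tested.

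The cytoplasmic actins differed much less between arrays. Actb had intensities of 185316 on the o-organoid, 126892 on the y-organoid, 227874 on the crypt and 229495 on the intestine array. None of these Actb spots was flagged as saturated. On the log2 scale its signal was 8.17, 8.82, 8.92 and 9.22 in that order, and the crypt and y-organoid arrays were within the scanner error of each other at this scaling, while y-organoid minus crypt was -0.67 with quantile normalization and -0.62 with the deposited scaling. The largest of its 4 differences was -0.75 ± 0.20 for o-organoid minus crypt, and o-organoid minus y-organoid was -0.64 ± 0.20, which was 0.00 with quantile normalization. The Elk1 probe read between 214614 and 236336 on the 4 arrays, although their 75th percentiles ran from 281 to 641. Whether signals this bright, Actb among them, are compressed near a ceiling was not tested.

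Actg1, the other cytoplasmic actin, was read by 5 probes, which disagreed. The brightest, A_55_P1970597, had log2 signals of 8.04 on the o-organoid, 8.36 on the y-organoid, 8.33 on the crypt and 7.84 on the intestine array, and no difference past 2-fold. A_55_P2114993 also stayed within 2-fold, at -0.49 for o-organoid minus crypt and 0.48 for crypt minus intestine.

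A_55_P1985984 and A_52_P72237 instead read low on the y-organoid and intestine arrays. A_55_P1985984 had intensities of 17990 on the o-organoid, 2903 on the y-organoid, 10829 on the crypt and 3597 on the intestine array. A_52_P72237 had 15890, 2599, 8365 and 3520 in the same order. For o-organoid minus y-organoid they gave 1.44 ± 0.20 and 1.42 ± 0.20, where the brightest probe gave -0.32 ± 0.20.

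These 2 probes overlap by 50 bases and differ there at 4 positions, G9A, A23G, T25G and T40C, with the base of A_52_P72237 first and positions counted from the 5′ end of A_55_P1985984. A_55_P2008907 overlaps A_52_P72237 by 22 bases with no difference, and its differences lay between -0.39 for y-organoid minus crypt and 0.28 for o-organoid minus y-organoid. The pair with 50 shared bases thus gave like differences, and A_55_P2008907, with the shorter overlap, did not follow them. Which transcript each probe reads was not tested.

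**Figure D3:**
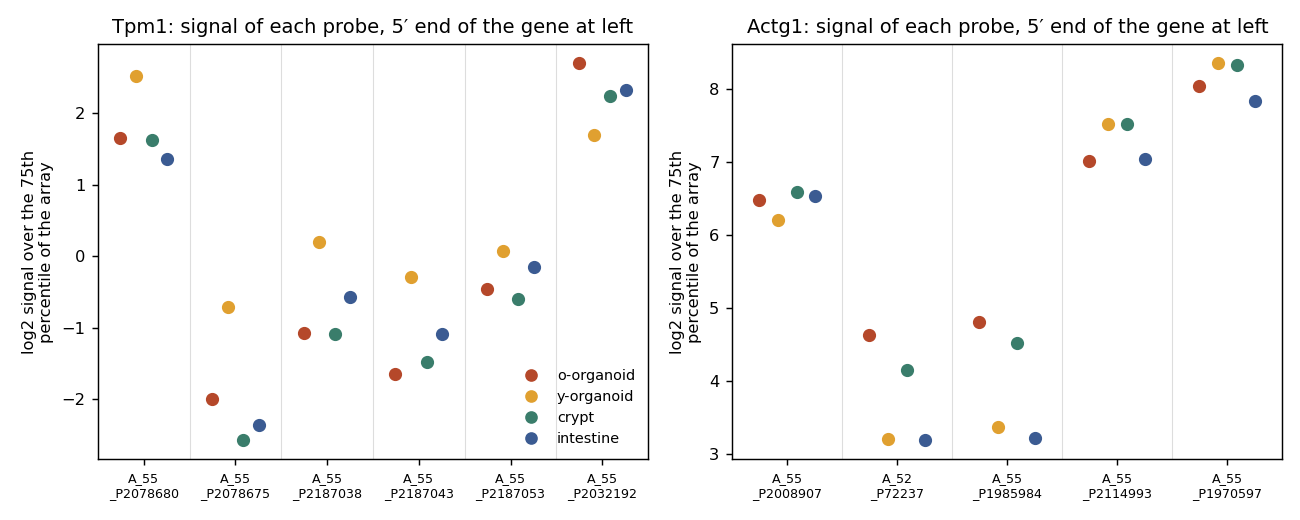
Log2 signal over the 75th percentile of the array (vertical axis) of each Tpm1 probe (left) and each Actg1 probe (right), ordered by mm9 position, with 1 point per array. The mm9 position given for Actg1 A_55_P1970597 covers only part of the probe. By their starts in the transcript, 1723 and 1841, it lies 5′ of A_55_P2114993, the reverse of the order shown. For Tpm1 the y-organoid point is lowest only at A_55_P2032192, and for Actg1 the o-organoid and y-organoid points part by 1.44 and 1.42 at A_55_P1985984 and A_52_P72237.

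Among the other actin and actin-related genes, the smooth muscle actins Acta2 and Actg2 were not well above background on either organoid array or the crypt array. On the intestine array their intensities were 7393 and 7221, and crypt minus intestine was a bound of at least 441-fold lower for Acta2 and at least 430.4-fold lower for Actg2. Of the 8 genes of this list, 5 could be compared between o-organoid and crypt with 0 past 2-fold, and 5 between y-organoid and crypt with 1 lower. That gene was Actr1b, a dynactin subunit, at -1.34. Over all genes, 8.51% were higher and 13.6% lower for o-organoid minus crypt, and 18.4% and 13.3% for y-organoid minus crypt.

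Myl9 gave the largest bounds of the 10 genes and was the only one of them past 4-fold between the organoid arrays. Its intensity was 101 ± 11.5 on the o-organoid, 3742 ± 374 on the y-organoid, 28.1 ± 6.63 on the crypt and 22994 ± 2299 on the intestine array, and the crypt spot was not well above background. Y-organoid minus crypt was at least 222-fold higher, o-organoid minus crypt at least 2.64-fold higher, and crypt minus intestine at least 995-fold lower. O-organoid minus y-organoid was -6.40 ± 0.22, or 84.2-fold lower. The y-organoid and o-organoid values therefore lay far apart, with the y-organoid value nearer to the intestine value. With normexp background correction crypt minus intestine was -8.02, against -9.96, y-organoid minus crypt was 5.79, against 7.80, and the o-organoid minus crypt call was lost, at 0.45. That correction adds an offset of 50, which by itself shrinks differences that involve dim spots.

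The smooth muscle list did not move with Myl9 on the y-organoid array. Of its 16 genes, 8 were well above background on the o-organoid, 6 on the y-organoid, 7 on the crypt and 15 on the intestine array. Their summed intensity over the 75th percentile was 17.8 on the o-organoid and 15.6 on the y-organoid array, against 33.9 on the crypt and 131 on the intestine array. Ckb was the brightest gene of the list on the organoid and crypt arrays and weighed most in their sums. Its log2 signal was 3.86 on the o-organoid, 3.47 on the y-organoid, 4.74 on the crypt and 4.70 on the intestine array. Acta2, Actg2, Myh11, Cnn1, Des, Synm and Hhip, among them the smooth muscle myosin heavy chain, calponin and desmin, passed background on the intestine array only of the 4.

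For crypt minus intestine, 13 of 15 compared were past 2-fold lower, with a median of -4.52, against 14.2% of all genes. For y-organoid minus crypt, 1 of 7 was higher (Pcp4, a calmodulin-binding protein, at 1.03) and 4 were lower, Pgm5, Mylk and Ckb among them, with a median of -1.20, and for o-organoid minus y-organoid 0 of 8 passed 2-fold, with a median of -0.39. Over all genes, 18.4% were higher and 13.3% lower for y-organoid minus crypt, and 8.08% and 19.3% for o-organoid minus y-organoid. Tagln, the smooth muscle protein transgelin, had a log2 signal of -2.14 on the o-organoid, -1.39 on the y-organoid, -1.27 on the crypt and 4.88 on the intestine array, so that y-organoid minus crypt was -0.12. The part of smooth muscle transcripts in the Myl9 signal was not tested.

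**Figure D4:**
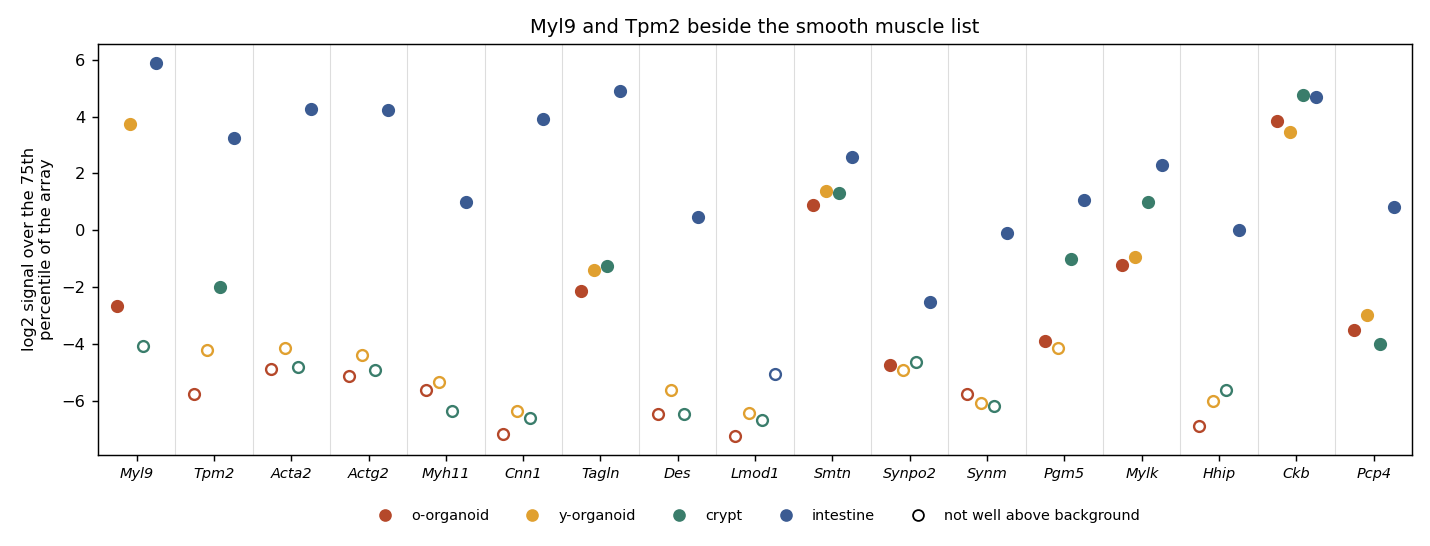
Log2 signal over the 75th percentile of the array (vertical axis) of Myl9, Tpm2 and 15 smooth muscle genes, with 1 point per array and open points for spots not well above background. The y-organoid point of Myl9 is at 3.73, and the organoid points of Tpm2 are open.

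The light chains Myl12a, Myl12b and Myl6 stayed within 2-fold of crypt on both organoid arrays. Myl12a and Myl12b, the non-muscle regulatory light chains closest to Myl9, gave -0.22 and -0.32 for o-organoid minus crypt and -0.55 and -0.72 for y-organoid minus crypt. Myl6, the essential light chain, gave -0.44 and -0.25 in those comparisons. Myl6b, another essential light chain, was -1.86 for y-organoid minus crypt, -0.28 for o-organoid minus crypt and 1.58 for o-organoid minus y-organoid. Myl4, an atrial and embryonic light chain, was -3.24 for crypt minus intestine. Of the light chain list with its kinases, 1 of 9 compared was higher and 1 lower for o-organoid minus crypt, against 1 and 2 of 9 for y-organoid minus crypt. The shares of all genes were 8.51% higher and 13.6% lower for o-organoid minus crypt, and 18.4% and 13.3% for y-organoid minus crypt.

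Mylk and Mylk3, kinases of the list, differed in opposite directions. Mylk, myosin light chain kinase, had intensities of 274 on the o-organoid and 148 on the y-organoid array, against 935 on the crypt and 1873 on the intestine array. It gave -2.22 for o-organoid minus crypt and -1.92 for y-organoid minus crypt. Mylk3, a muscle light chain kinase, had intensities of 376 and 124 on the o-organoid and y-organoid arrays, against 58.5 on crypt and 40.6 on intestine, and gave 2.23 and 1.82. Rock2, a kinase that acts on myosin II and its phosphatase, and Ppp1r12a, the targeting subunit of myosin phosphatase, were higher for y-organoid minus crypt, at 1.40 and 1.31. For o-organoid minus crypt they were at 0.03 and -0.49. The largest differences of their list for y-organoid minus crypt were 1.77 for Diaph3 and -1.73 for Rhoc. For o-organoid minus crypt these 2 genes were at 1.35 and -1.76. Over the 15 non-muscle myosin and regulator genes, 4 of 14 compared were higher and 1 lower for y-organoid minus crypt, against 1 higher and 3 lower for o-organoid minus crypt. Over all genes, 18.4% were higher and 13.3% lower for y-organoid minus crypt, and 8.51% and 13.6% for o-organoid minus crypt.

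Tpm1 was read by 6 probes and its direction depended on the probe. The brightest, A_55_P2032192, had intensities of 4165 on the o-organoid, 906 on the y-organoid, 2205 on the crypt and 1923 on the intestine array. It gave 1.01 ± 0.20 for o-organoid minus y-organoid, just past 2-fold, and -0.54 ± 0.20 for y-organoid minus crypt, which was -1.06 with the deposited scaling. The other 5 probes ran the opposite way, with o-organoid minus y-organoid between -1.36 and -0.54 and y-organoid minus crypt between 0.68 and 1.86.

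A_55_P2078680, the second brightest, had intensities of 2014 on the o-organoid, 1609 on the y-organoid, 1444 on the crypt and 993 on the intestine array. Past 2-fold, 3 of the 6 probes were higher for y-organoid minus crypt, and for o-organoid minus y-organoid 1 was higher and 3 lower. Since Tpm1 makes isoforms by alternative exons and ends, the probes can read different transcripts, and which they read was not tested. The mean over probes turned o-organoid minus y-organoid to -0.72. Of these probes, A_55_P2187038 and A_55_P2187043 share 46 bases and are not independent readings.

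Tpm2, the beta tropomyosin of muscle, was bright on the intestine array and dim on the organoid arrays at both of its probes. A_55_P2121408 had intensities of 11.8 on the o-organoid and 15.1 on the y-organoid array, both not well above background, against 119 on the crypt and 3676 on the intestine array. A_52_P315976 had 5.38 and 5.37 on the organoid arrays, not well above background, against 64.1 on the crypt and 2372 on the intestine array. Crypt minus intestine was -5.23 ± 0.21 and -5.49 ± 0.24 at the 2 probes, 37.6-fold and 45.0-fold lower. O-organoid minus crypt was at least 8.11-fold and at least 4.38-fold lower, and y-organoid minus crypt at least 4.65-fold and at least 2.51-fold lower.

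With normexp background correction, y-organoid minus crypt for Tpm2 was -0.55 and was no longer past 2-fold. Here too the offset of 50 by itself shrinks the difference, since the y-organoid spot was dim. The smooth muscle list moved with Tpm2 between crypt and intestine, as given above, and its part in the Tpm2 difference was not tested. Unlike Myl9, Tpm2 was not well above background on the y-organoid array.

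Tpm4, a tropomyosin of non-muscle cells, was higher on both organoid arrays. Its intensity was 5614 on the o-organoid and 2680 on the y-organoid array, against 1858 on the crypt and 1924 on the intestine array. The difference was 1.14 ± 0.20, or 2.21-fold, for o-organoid minus crypt and 1.27 ± 0.20, or 2.41-fold, for y-organoid minus crypt, which was 0.76 with the deposited scaling. O-organoid minus y-organoid was -0.12 ± 0.20, within the scanner error, and 0.51 with the deposited scaling. Tpm3, the remaining tropomyosin gene, stayed between -0.19 and 0.34 in the 4 comparisons. Tmod3, a cap of the filament's pointed end, was 1.48 for o-organoid minus y-organoid.

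Vil1 was low on both organoid arrays. Its intensity was 17679 on the o-organoid and 5227 on the y-organoid array, against 60236 on the crypt and 47557 on the intestine array. O-organoid minus crypt was -2.22 ± 0.20, or 4.66-fold lower, and y-organoid minus crypt was -2.79 ± 0.20, or 6.90-fold lower, while crypt and intestine were within the scanner error at 0.06 ± 0.20, though 0.80 apart with the deposited scaling. Ezr was low on the o-organoid array alone of the 4. Its intensity was 4179 on the o-organoid, 4919 on the y-organoid, 8386 on the crypt and 8429 on the intestine array. On the log2 scale the o-organoid signal was 2.70, where the other 3 arrays lay between 4.13 and 4.45. O-organoid minus crypt was -1.46 ± 0.20 and o-organoid minus y-organoid -1.43 ± 0.20, which was -0.79 with the deposited scaling, while y-organoid minus crypt was -0.03 ± 0.20.

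Of 24 brush border and ezrin-family genes compared, 11 were past 2-fold lower and 2 higher for o-organoid minus crypt, with a median of -0.89. There, 13.6% of all genes were lower and 8.51% higher. For y-organoid minus crypt, 12 of 24 were lower and 4 higher, with a median of -1.01, where 13.3% of all genes were lower and 18.4% higher. Pdzk1, a scaffold of apical transporters, had a log2 signal of -2.24 on the o-organoid and -1.47 on the y-organoid array, against 4.88 on the crypt and 4.93 on the intestine array, so that it was 139-fold and 81.9-fold lower. Cdhr2 and Cdhr5, the protocadherins that join microvillus tips, were -2.39 and -1.91 for o-organoid minus crypt and -2.21 and -3.63 for y-organoid minus crypt. Pls1, the microvillus fimbrin, was -2.26 and -2.17, and Myo1a, the myosin that ties the core to the membrane, was -2.15 and -2.38.

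Krt20 and Lct, markers of mature villus cells, were low on the organoid arrays with these genes, as given above, and their part in the difference was not tested. Alpi, another enterocyte gene, differed less on the o-organoid array. Its log2 signal was 4.01 on the o-organoid and 1.42 on the y-organoid array, against 4.87 on the crypt and 5.69 on the intestine array. Vill, a villin-like gene, ran the other way, at 3.21 or 9.22-fold higher for y-organoid minus crypt. The ezrin relatives moesin (Msn) and radixin (Rdx) were not well above background on the organoid and crypt arrays, and crypt minus intestine was a bound of at least 75.5-fold lower for moesin.

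**Figure D5:**
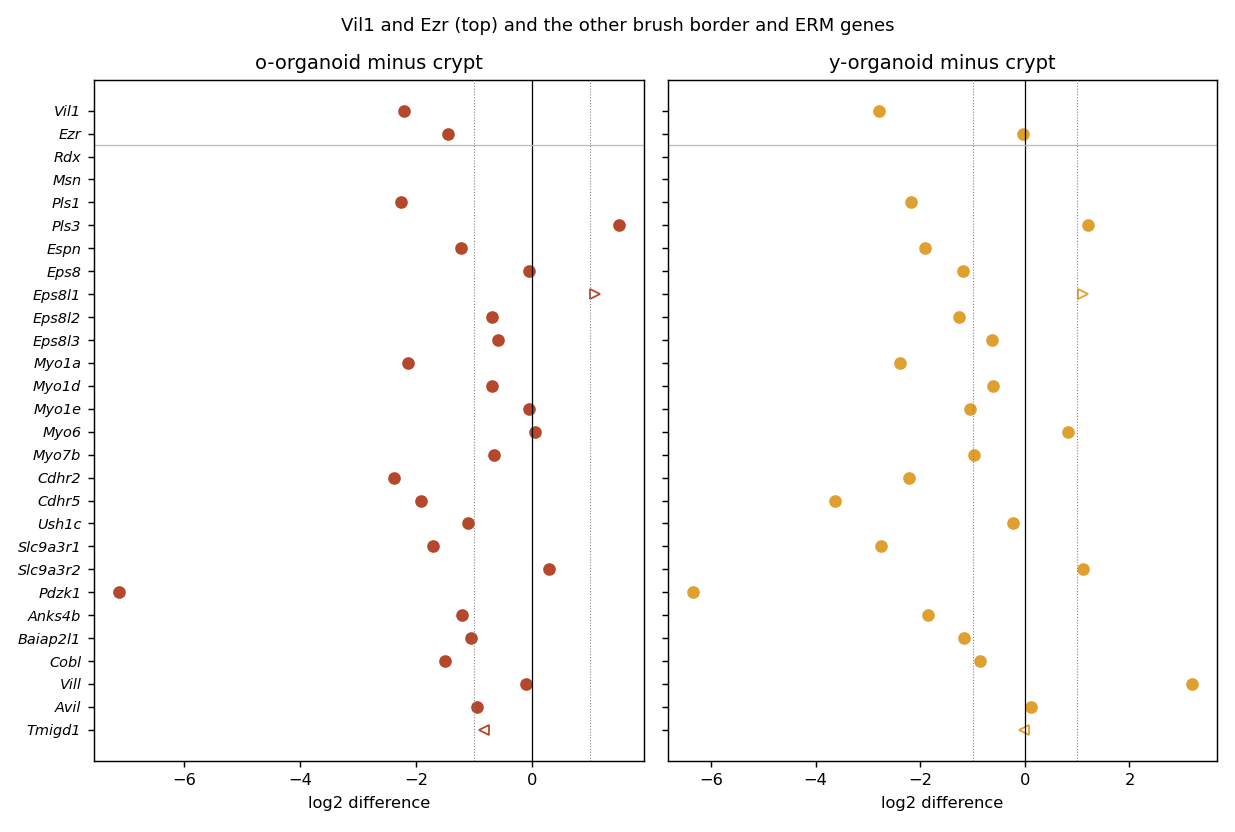
Log2 difference (horizontal axis) of Vil1, Ezr and the other brush border and ezrin-family genes for o-organoid minus crypt (left) and y-organoid minus crypt (right), with open triangles for bounds and dotted lines at 2-fold. Pdzk1 lies farthest to the left in both panels, at -7.12 and -6.36, and Ezr lies at -1.46 on the left and -0.03 on the right.

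Genes that bind, cap, sever or crosslink actin filaments were mostly within 2-fold, as were most of all genes compared. For o-organoid minus crypt, 5 of 31 compared were higher and 0 lower, with a median of 0.12, against 8.51% and 13.6% of all genes. For y-organoid minus crypt 4 were higher and 2 lower, with a median of -0.01, against 18.4% and 13.3% of all genes. Flna, the crosslinker filamin A, had intensities of 3567 on the o-organoid and 1441 on the y-organoid array, against 360.0 on the crypt and 6065 on the intestine array, and was 7.25-fold and 6.68-fold higher. Cnn2, a non-muscle calponin, was dim on the crypt array and at least 11.03-fold and at least 12.9-fold higher. Flna and Cnn2 were thus high on both organoid arrays and the intestine array, and low on the crypt array.

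Serum response factor is a transcription factor that, with its actin-sensing cofactors, drives many actin and muscle genes through a motif named the CArG box. Srf itself was level, with log2 signals of 0.58 on the o-organoid, 0.22 on the y-organoid, 0.42 on the crypt and 0.48 on the intestine array. Of the 14 genes listed for Srf, its cofactors and some targets, 1 was higher (Ccn1, at 1.20) and 1 lower (Tgm2, at -1.22) of 9 compared for o-organoid minus crypt, and 1 was higher (Elk4, at 1.16) and 0 lower of 8 for y-organoid minus crypt. Over all genes, 8.51% were higher and 13.6% lower in the first comparison, and 18.4% and 13.3% in the second.

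The CArG box was searched on both strands in the 250 bases before the RefSeq gene start (GRCm38.p6), where 482 of 32851 promoters (1.47%) hold one. It was found for 5 of the 9 members with a promoter in the table, Acta1, Actc1, Actg1, Myl9 and Vil1. Actb had no promoter there, so it was not searched. The windows are shown because members with a box did not move together; the capitals mark the box.
Acta1, chr8:123894819-123894868, minus strand: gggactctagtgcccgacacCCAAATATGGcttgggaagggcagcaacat
Actc1, chr2:114052893-114052942, minus strand: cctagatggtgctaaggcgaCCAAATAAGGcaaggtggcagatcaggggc
Actg1, chr11:120348556-120348605, minus strand: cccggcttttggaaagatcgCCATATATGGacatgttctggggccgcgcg
Myl9, chr2:156775283-156775332, plus strand: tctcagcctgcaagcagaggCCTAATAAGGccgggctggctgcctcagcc
Vil1, chr1:74409291-74409340, plus strand: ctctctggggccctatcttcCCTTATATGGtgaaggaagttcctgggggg

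The 5 genes with a box went in different directions between y-organoid and crypt. Acta1 was 29.2-fold higher and Myl9 at least 222-fold higher, Vil1 was 6.90-fold lower, the brightest Actg1 probe was at 0.03, and Actc1 was not well above background on either array. A match is a description of letters in a window and shows neither a bound site nor a cause.

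The genes most like each member were sought among 14654 genes by the distance between mean-centred log2 signals over the 4 arrays. For Vil1 they were Agpat2 (0.10), Mttp (0.12) and Sis (0.13), the last being sucrase-isomaltase of the enterocyte brush border. Sis had log2 signals of 4.14 on the o-organoid and 3.41 on the y-organoid array, against 6.35 on the crypt and 6.29 on the intestine array. For Acta1 the nearest were Rgcc (0.69), Moxd1 (0.80) and Mab21l3 (0.85), and for Ezr they were Clstn3 (0.07), Prxl2b (0.13) and Rhou (0.14). For Tpm4 they were Lactb2 and Diaph2, both at 0.03.

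Myl9 had no close neighbour, the nearest being Emid1 at a distance of 3.81, Pcolce at 4.05 and Ly6c1 at 4.14. For Tpm2 the nearest were Hspb1 (0.61), Tyrobp (0.69) and Coro1a (0.77), with both organoid values at the lowest measurable signal, and Actc1, dim on 3 of the 4 arrays, is not described this way. With 4 arrays many genes share a pattern, as the small distances for Actb (Arl4c, 0.01) and Actg1 (Araf, 0.04) show.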

How the data were processed

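RNA of 4 samples was labelled with Cy3 and hybridised to 1 Agilent array each. The authors deposited spot intensity values from Agilent Feature Extraction 10.7.3.1, per the file headers, with background subtracted and probe positions in build mm9. The authors also deposited a ratio table, which equals the processed intensity over 1 constant per array. The constants were 36.9 on the o-organoid, 25.2 on the y-organoid, 29.5 on the crypt and 40.5 on the intestine array. To these digits they equal the arrays' median intensities. The sources used here name no tool for it. Here the deposited intensities were put on the log2 scale, each array's 75th percentile was taken off, spots called outliers by the scanner software were left out, and a gene's value came from its probe of highest mean. Genes were named through the RefSeq table of GRCm38.p6 by accession (27215 probes), symbol (3575) or synonym (565), with 8054 probes keeping the file's name. Sequences are from the files (probes) and RefSeq (promoters). Calls were made at 2-fold. Over 399 repeated probes, the median SD on an array was between 0.086 and 0.122 (log2). Precision is limited by the number of arrays, and no test was possible. Named genes were all 10 members, up to 3 genes of each related list with the largest difference in each comparison, and the 3 nearest patterns of each member; context markers and others were chosen after their values were seen. The members and lists were chosen with earlier results of these data known. Alternatives were normexp in limma 3.58.1 (R 4.3.3, offset 50), the deposited scaling, other filters, other probe rules and a 4-fold call. The steps were tested on simulated data. 1 gene of the smooth muscle list is counted with it but not reported here by name.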

Additional observations from a re-analysis of the deposited data

How the results depend on the processing

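Of the 36 differences of the 10 genes that could be computed, 17 were past 2-fold. Of these, 16 kept their sign and 11 stayed past 2-fold under every alternative run in which they had a value. Differences that are bounds had no value where signal above background was required on both arrays. The exception in sign was Tpm1 for o-organoid minus y-organoid, 1.01 from the brightest probe and -0.72 from the mean over its probes, since its probes disagree. With a 4-fold call, the genes past the threshold numbered 3 for o-organoid minus crypt, against 6, and 1 for o-organoid minus y-organoid, against 3. The number for o-organoid minus y-organoid was 5 with no filter on dim probes. Requiring signal above background on both arrays left 3 for y-organoid minus crypt, against 5, since bounds were then left out. The deposited scaling moved the median of all genes to 0.80 for crypt minus intestine, against 0.06, and to 0.43 for o-organoid minus y-organoid, against -0.15. For y-organoid minus crypt it gave -0.36, against 0.15. With it, Acta1 for crypt minus intestine (-0.54), Ezr for o-organoid minus y-organoid (-0.79) and Tpm4 for y-organoid minus crypt (0.76) fell below 2-fold, while Tpm1 for y-organoid minus crypt (-1.06), Actg1 for crypt minus intestine (1.23) and Acta1 and Vil1 for o-organoid minus y-organoid (1.22 and 1.20) passed it. Acta1 ranged from 4.50 to 5.58 for o-organoid minus crypt and from 3.83 to 4.87 for y-organoid minus crypt. Myl9 ranged from 5.79 to 7.80 for y-organoid minus crypt, from -9.96 to -8.02 for crypt minus intestine, and from 0.45 to 1.53 for o-organoid minus crypt. Values near background, such as Myl9 and Tpm2 on the crypt and organoid arrays, are limited by signal over background. No paired analysis was possible because each group has 1 array.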
